A study of Homo sapiens with 4 samples.

Results

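The genes described here encode the subunits of the hypoxia-inducible factors (HIF) and the proteins that couple their stability and activity to oxygen. The 7 members were taken by gene name, HIF1A, EPAS1, ARNT, VHL, EGLN1, EGLN2 and HIF1AN, from the 28391 genes of the deposited table, with 1 row each. The rule uses names and no measured value, but earlier results of these data were known when the members were chosen. RNA was sequenced from HCT116, an established human colorectal carcinoma cell line, in 2 groups of 2 libraries. The control libraries are labelled shNC with the genotype WT, and the other libraries shALKBH5 with the genotype ALKBH5 knockdown, that is, cells with a short hairpin RNA against ALKBH5, a dioxygenase that removes N6-methyladenosine (m6A) from RNA. All libraries came from cells in the same serum-containing medium, and the labels name no hypoxia treatment or oxygen level, no drug and no vector, and leave unsaid whether the cells were a pool or a clone. Separate cultures within a group are not stated either, and p-values here therefore cover the spread between samples alone, which may be technical. In bulk RNA of this kind, fewer cells that use a gene and less of its RNA per cell cannot be told apart.

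A HIF is a pair of an alpha subunit, HIF-1alpha (HIF1A) or HIF-2alpha (EPAS1), and the constant beta subunit ARNT. While oxygen is present, prolyl hydroxylases of the EGLN family mark the alpha subunits, the VHL ubiquitin ligase binds the marked protein and directs it to the proteasome, and the asparaginyl hydroxylase HIF1AN blocks the binding of coactivators. When oxygen falls the hydroxylases slow down, the alpha subunits accumulate and genes of glucose uptake, glycolysis and angiogenesis are transcribed. Much of this control acts on protein, which RNA sequencing does not measure. The hydroxylases and ALKBH5 belong to the same broad class of iron- and 2-oxoglutarate-dependent dioxygenases.

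Of the 7 members, 0 passed the test between the groups, limma-trend on log2(value + 1) with a Benjamini-Hochberg adjusted p under 0.05 over all 25887 genes tested, of which 3.86% passed. At an unadjusted p under 0.05 there were 3 members, EPAS1, VHL and EGLN1, where 21.4% of all genes tested stood at that level. The 2 largest differences relative to their error were those of EPAS1 and VHL, both higher in shALKBH5, by 17.1% and 13.8% of the shNC mean. These are the members that passed when the whole reads behind the deposited values were tested with edgeR, 2 of 7 where 20.8% of 16473 genes passed; DESeq2 on the same reads passed 0. HIF1A, the alpha subunit with the higher level per gene length, differed by -2.83%, and its groups overlapped.

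HIF binds DNA at a short core, ACGTG or GCGTG. Some genes of the oxygen-sensing machinery, EGLN1 among them, are themselves known HIF targets. Stretches just upstream of a RefSeq start are therefore shown for 4 members, those that held a core. Each is the 250 bases before the RefSeq start (GRCh38.p14), with each ACGTG or GCGTG on either strand in capitals. The EGLN1 and EPAS1 stretches lie inside the gene spans given below, and the EGLN2 stretch partly. RefSeq promoter sequences were matched for 6 of the 7 members, all but VHL. The EGLN1 stretch is chr1:231422288-231422537 on the minus strand, that of EGLN2 chr19:40798941-40799190, that of EPAS1 chr2:46297157-46297406 and that of HIF1A chr14:61695263-61695512, all 3 on the plus strand.
EGLN1: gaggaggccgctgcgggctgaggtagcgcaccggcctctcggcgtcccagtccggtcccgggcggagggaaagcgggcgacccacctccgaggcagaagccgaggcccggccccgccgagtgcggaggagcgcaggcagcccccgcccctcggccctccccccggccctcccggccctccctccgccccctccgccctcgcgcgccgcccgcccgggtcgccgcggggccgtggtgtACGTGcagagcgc
EGLN2: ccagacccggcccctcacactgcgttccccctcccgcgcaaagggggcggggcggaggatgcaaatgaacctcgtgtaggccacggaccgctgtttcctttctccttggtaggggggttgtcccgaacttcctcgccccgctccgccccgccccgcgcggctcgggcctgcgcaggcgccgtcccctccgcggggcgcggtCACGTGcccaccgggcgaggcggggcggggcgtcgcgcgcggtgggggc
EPAS1: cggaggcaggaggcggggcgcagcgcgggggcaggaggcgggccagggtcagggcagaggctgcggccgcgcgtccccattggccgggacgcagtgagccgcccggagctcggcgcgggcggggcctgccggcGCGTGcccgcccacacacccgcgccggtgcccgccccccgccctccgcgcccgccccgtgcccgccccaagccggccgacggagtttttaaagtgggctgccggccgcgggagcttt
HIF1A: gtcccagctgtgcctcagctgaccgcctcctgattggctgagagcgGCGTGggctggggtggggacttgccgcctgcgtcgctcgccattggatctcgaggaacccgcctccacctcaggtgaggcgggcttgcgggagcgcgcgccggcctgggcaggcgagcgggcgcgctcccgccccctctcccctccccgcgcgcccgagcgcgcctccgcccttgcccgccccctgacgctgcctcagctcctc
EGLN1 held 1 ACGTG, with its first base at -13 from the start. EGLN2 held 1 CACGTG, at -49, a palindrome that reads as ACGTG on both strands and is also the E-box bound by other basic helix-loop-helix factors. EPAS1 and HIF1A each held 1 GCGTG, at -117 and -204. ARNT and HIF1AN, and the second annotated starts of HIF1A and EGLN2, had neither core in their stretches. Outside the members, the stretch of EGLN3, a known HIF target, held 0 cores, and that of ALKBH5 held 4 GCGTG. Either core was present in 43.2% of all 35116 such stretches, ACGTG in 18.5% and GCGTG in 32.2%. These shares count stretches, while 4 of 6 counts members and leaves out the second stretches of HIF1A and EGLN2. The count and the shares therefore cannot be compared directly. The members' stretches with a core held 75.6% to 81.2% G and C, against a median of 58.0% over all stretches. Those without a core ranged from 31.2% (HIF1A, second start) to 81.2% (EGLN2, second start). The 4 of 6 members is a description of letters, not of binding.

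The hairpin target was checked first. ALKBH5 had 1905 and 1941 normalised counts in shNC against 312 and 270.2 in shALKBH5, with no overlap, a log2 fold change of -2.72 ± 0.0812 (SE; adjusted p 0.00131 in limma-trend). Reads in genes numbered from 16398604 to 17493141 per library, and all but EGLN2 of the members were read often enough that counting alone would leave a coefficient of variation of 1.96% to 3.30% within a group. Of 8 epithelial markers, 6 were at a mean of at least 50 normalised counts, with sums from 99333 to 109943 per library, while the colon markers CDH17 and VIL1 were near 0. The 3 leukocyte markers in the table summed to 7.09 to 20.4 per library, the 4 fibroblast markers to 858 to 925, nearly all of it COL1A1, and the 4 endothelial markers to 28.4 to 56.2. The part of other cells in the results was not tested.

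**Figure D1:**
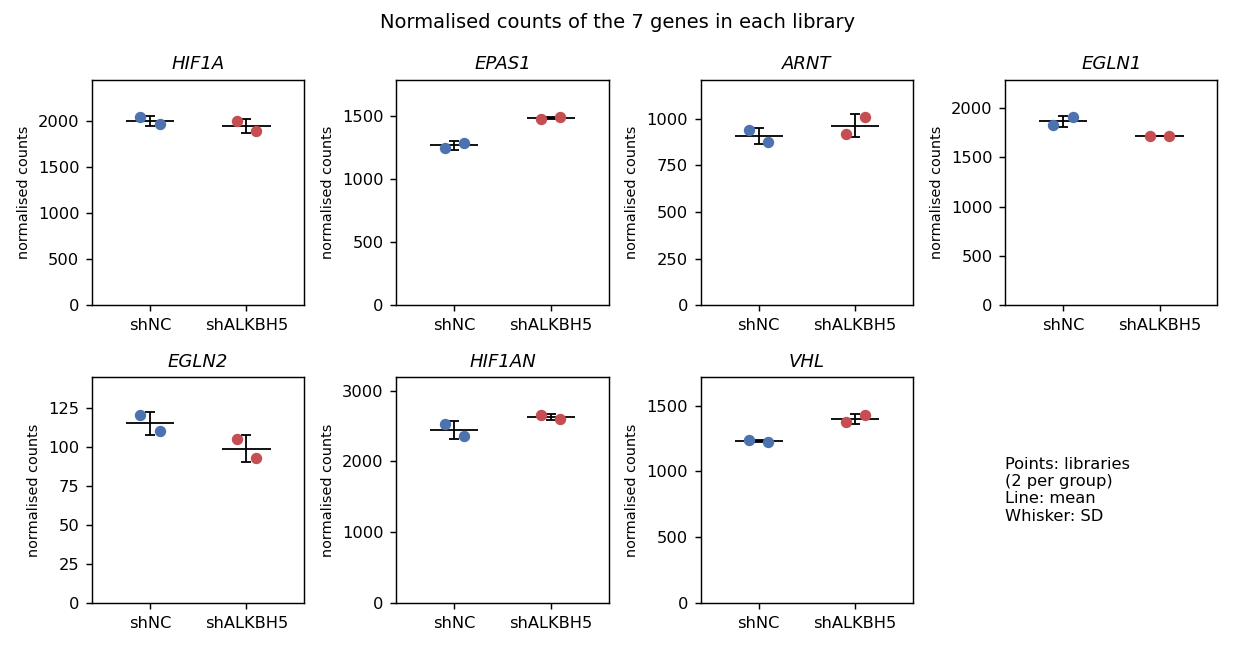
Normalised counts (y axis, from 0) of each member in the 2 shNC libraries (blue) and the 2 shALKBH5 libraries (red), with the group mean (line) and SD (whisker). The groups do not overlap for EPAS1, VHL, EGLN1, EGLN2 and HIF1AN, and they overlap for HIF1A and ARNT.

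HIF1A (ENSG00000100644, chromosome 14, 61695513 to 61748259, plus strand, GRCh38) encodes HIF-1alpha, the alpha subunit that drives glycolytic genes. Its normalised counts were 2037 and 1963 in shNC against 1998 and 1889 in shALKBH5. The groups overlapped, the shALKBH5 library 1 lying between both controls. The mean was 2000.0 ± 52.8 in shNC and 1943 ± 77.5 in shALKBH5 (SD, n = 2 each), a log2 fold change of -0.04 ± 0.0478 (SE; adjusted p 0.688 in limma-trend). The 95% confidence interval of that difference, from -0.16 to 0.08, corresponds to a ratio between 0.894 and 1.06. On the opposite strand HIF1A-AS2, an antisense RNA, was listed at 2.85 and 9.20 in shNC and at 1.01 and 5.00 in shALKBH5, too few reads to compare, and its exons share 0 bases with those of HIF1A. Of the 5151 exon bases of HIF1A, 148 are shared with AL137129.1 on the same strand. Another 2.27% are shared on the opposite strand, with HIF1A-AS1. Neither of these 2 genes has a row in the deposited data.

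EPAS1 (ENSG00000116016, chromosome 2, 46293667 to 46386703, plus strand) encodes HIF-2alpha, the alpha subunit first described in endothelium and known for erythropoietin control. The controls gave 1243 and 1289 normalised counts and the knockdown libraries 1477 and 1489. Both shALKBH5 libraries were above both controls, and the gap between the groups was wider than either pair's own distance. Those distances are no measure of precision. The coefficient of variation was 2.58% in shNC and 0.566% in shALKBH5, below the 2.79% and 2.61% that counting alone would leave. The mean was 1266 ± 32.7 in shNC and 1483 ± 8.40 in shALKBH5, a log2 fold change of 0.23 ± 0.0448. The limma-trend adjusted p was 0.0606 and the 95% confidence interval, not adjusted for the number of genes, ran from 0.12 to 0.34. With this standard error a log2 fold change of 0.25 would have been needed to pass. The call depended on the tool, since edgeR gave an adjusted p of 0.00707, and limma-trend gave 0.00435 when only the 12540 genes with a mean of at least 50 were tested, of which 27.8% passed. The authors' deposited table gives a log2 fold change of 0.23 and an adjusted p of 0.0597 for EPAS1.

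ARNT (ENSG00000143437, chromosome 1, 150809705 to 150876768, minus strand) encodes HIF-1beta, the partner of both alpha subunits and of the dioxin receptor. Normalised counts of 938 and 875 in shNC stood against 918 and 1007 in shALKBH5, and the groups overlapped. The log2 fold change was 0.09 ± 0.0691 (adjusted p 0.54 in limma-trend), with a 95% confidence interval from -0.09 to 0.26. The other subunit genes were much lower or near 0. ARNT2, the neuronal relative of ARNT, had 230.2 and 217 normalised counts in shNC against 159 and 178 in shALKBH5, and the log2 fold change of -0.41 did not pass in limma-trend (adjusted p 0.114) and passed in edgeR (adjusted p 0.0375). HIF3A, an alpha subunit known to give inhibitory isoforms and named here as a relative, had at most 10.0 normalised counts in any library.

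The prolyl hydroxylase EGLN1 (ENSG00000135766, chromosome 1, 231363751 to 231425044, minus strand), also called PHD2, is the main oxygen sensor for HIF-1alpha. In shNC it had 1829 and 1907 normalised counts, and in each shALKBH5 library 1715. Both shALKBH5 libraries were below both controls, and the means differed by -8.18%. Its log2 fold change was -0.12 ± 0.0428, with a 95% confidence interval from -0.23 to -0.02 that is not adjusted for the number of genes, and it passed neither limma-trend (adjusted p 0.181) nor edgeR (adjusted p 0.0892).

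EGLN2 (ENSG00000269858, chromosome 19, 40798996 to 40808433, plus strand), or PHD1, is a prolyl hydroxylase found mostly in the nucleus. It had only 121 and 110.3 normalised counts in shNC against 105 and 93.1 in shALKBH5. The groups did not overlap, but counting alone leaves a coefficient of variation of 9.23% in shNC and 10.1% in shALKBH5. The log2 fold change was -0.22 ± 0.145 (adjusted p 0.445 in limma-trend), and its 95% confidence interval, from -0.58 to 0.14, is the widest among the members. In GENCODE release 29, 30.6% of the exon bases of EGLN2 are shared on the same strand with the readthrough gene RAB4B-EGLN2 and with AC008537.1. How the authors counted reads in shared exons is not given in the sources used here, so the level of EGLN2 is uncertain.

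Among the relatives of these hydroxylases, EGLN3 fell. EGLN3, or PHD3, is a prolyl hydroxylase and a known HIF target. Its 387 and 343 normalised counts in shNC compare with 239 and 254 in shALKBH5, a log2 fold change of -0.56 ± 0.0952 (adjusted p 0.0448 in limma-trend, edgeR adjusted p 0.000876). P4HTM, a membrane-bound prolyl hydroxylase reported to act on HIF, had 866 and 871 in shNC against 1060 and 1024 in shALKBH5, and its log2 fold change of 0.26 did not pass in limma-trend (adjusted p 0.0563) and passed in edgeR (adjusted p 0.00815). Of the 5 hydroxylase genes, 1 was lower and 0 higher in limma-trend, where 1.88% of all genes tested were lower and 1.98% higher.

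HIF1AN (ENSG00000166135, chromosome 10, 100529072 to 100559998, plus strand) encodes FIH, the asparaginyl hydroxylase that keeps the coactivators p300 and CBP off the alpha subunits. The shNC libraries held 2534 and 2356 normalised counts, and those of shALKBH5 2656 and 2596. Both shALKBH5 libraries were above both controls, but the distance to the nearer control was smaller than that between the controls. The log2 fold change was 0.10 ± 0.0485 (adjusted p 0.289 in limma-trend), with a 95% confidence interval from -0.02 to 0.23. NDUFB8, with 211 and 203 normalised counts in shNC against 161 and 183 in shALKBH5, lies on the opposite strand and shares 325 of the 13950 exon bases of HIF1AN. The sources used here do not state if counting used the strand.

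VHL (ENSG00000134086, chromosome 3, 10141008 to 10152220, plus strand) encodes the subunit of the ubiquitin ligase that recognises hydroxylated alpha subunits. Normalised counts were 1236 and 1227 in the controls against 1375 and 1429 after the knockdown. Both shALKBH5 libraries were above both controls. The mean was 1232 ± 6.68 in shNC and 1402 ± 38.3 in shALKBH5. In shNC the coefficient of variation of 0.542% was below the 2.83% that counting alone would leave. VHL had a log2 fold change of 0.19 ± 0.0457. The 95% confidence interval, not adjusted for the number of genes, ran from 0.07 to 0.30. VHL did not pass in limma-trend (adjusted p 0.095) and passed in edgeR (adjusted p 0.0276). The authors' deposited table gives an adjusted p of 0.158 for VHL.

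**Figure D2:**
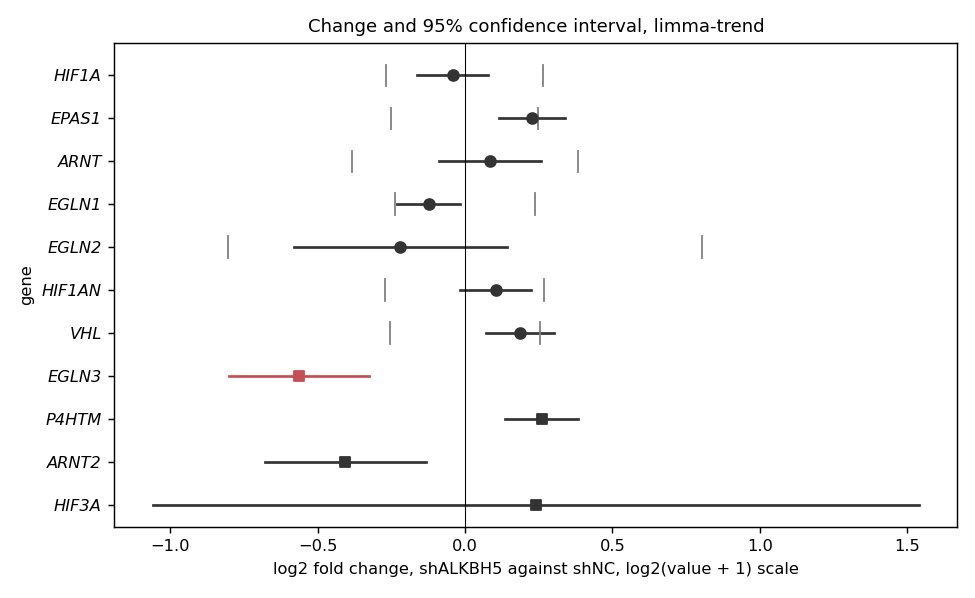
Log2 fold change (x axis, shALKBH5 against shNC on the log2(value + 1) scale) with its unadjusted 95% confidence interval in limma-trend for the 7 members (circles) and 4 related genes (squares), with genes past the adjusted threshold in red. Grey ticks mark, for the members, the change needed to pass at that gene's standard error: EPAS1 at 0.23 lies just short of 0.25, HIF1A is near 0, and EGLN3 at -0.56 is the one that passed.

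As a group the members had a median log2 fold change of 0.09, beside -0.00399 over all genes tested and 0.00769 over the 12540 genes averaging 50 or more normalised counts. Their median absolute log2 fold change of 0.12 was close to the 0.14 of those 12540 genes. The groups did not overlap for 5 of the 7 members, where this held for 63.6% of the 12540 genes and 50.6% of all genes tested. The share among the members is near that background.

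Per kilobase of exon the levels of the members differed by over an order of magnitude only through EGLN2. Over the 4 libraries EGLN2 averaged 16.3 normalised counts per kilobase, and the others from 143 (ARNT) to 383 (HIF1A). The level of EGLN2 is uncertain, since 30.6% of its exon bases are shared with other genes on the same strand. HIF1A was highest, with 388 ± 10.3 normalised counts per kilobase in shNC and 377 ± 15.0 in shALKBH5. VHL followed with 292 ± 1.59 and 333 ± 9.09, then EGLN1 with 257 ± 7.63 and 236 ± 0.00571, the last being the spread of libraries that happened to be nearly equal. EPAS1 was at 173 ± 4.48 and 203 ± 1.15 per kilobase and HIF1AN at 175 ± 9.02 and 188 ± 3.02. ARNT was at 139 ± 6.87 and 148 ± 9.64, and EGLN2 was lowest at 17.6 ± 1.12 and 15.1 ± 1.32. Over the 4 libraries the ranges of neighbours in this order were separate except for EPAS1 and HIF1AN, whose order differed between the controls. EPAS1 was below HIF1AN in shNC library 1, at 170 against 182, and above it in shNC library 2, at 177 against 169. EPAS1 was also above HIF1AN in both shALKBH5 libraries. The length is that of all annotated exons, so a gene whose cells use a shorter transcript has its level per kilobase understated.

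Within a library the ratio of 2 members does not depend on the scaling of that library. EPAS1 over HIF1A per kilobase was 0.43 and 0.463 in shNC and 0.522 and 0.556 in shALKBH5, higher in both shALKBH5 libraries than in either control. VHL over HIF1A was 0.742 and 0.764 in shNC and 0.841 and 0.925 in shALKBH5. EGLN1 over VHL was 0.858 and 0.901 in shNC and 0.723 and 0.696 in shALKBH5. HIF1AN over HIF1A was 0.459 and 0.443 in shNC and 0.491 and 0.508 in shALKBH5. For these 4 ratios the groups did not overlap, while those of ARNT and of EGLN1 over HIF1A did. The share for ratios of other gene pairs was not computed. Among single genes averaging 50 or more normalised counts the groups did not overlap for 63.6%. The ratios reuse the members' values given above and share HIF1A or VHL, so they are not separate evidence. With 2 libraries against 2 the smallest two-sided p an exact permutation test can give is 0.333, which each of the 4 had before any adjustment over the 6 ratios.

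**Figure D3:**
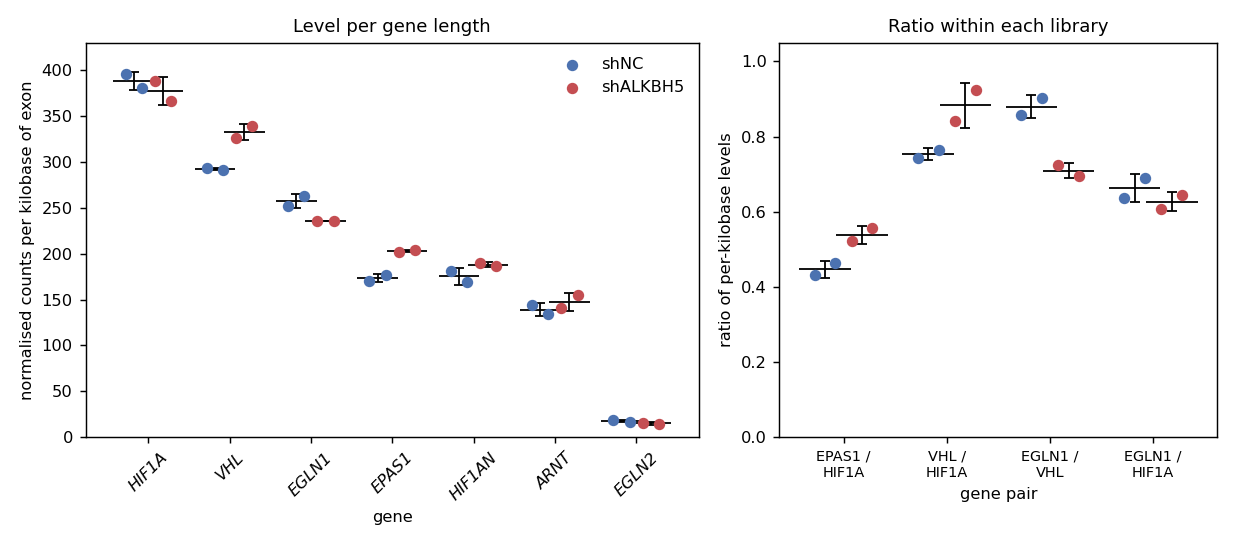
Left, normalised counts per kilobase of exon (y axis) of the members in the shNC (blue) and shALKBH5 (red) libraries, ordered by their mean. Right, the ratio of the per-kilobase levels of 2 members within each library. Lines are group means and whiskers SD of 2 libraries; the ratios of EPAS1 to HIF1A and VHL to HIF1A are higher, and that of EGLN1 to VHL lower, in both shALKBH5 libraries.

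Since ALKBH5 acts on m6A, the letters GGACT, a common form of the context in which m6A is made, were counted on the sense strand of the longest coding transcript of each member in GENCODE release 29. HIF1A held 1 in 3956 bases, 0.253 per kilobase, which placed it at percentile 8.80 of 11571 coding genes averaging 50 or more normalised counts. VHL held 2 in 3737 bases, or 0.535 per kilobase. The others were above the median of all these genes, 0.936 per kilobase: EPAS1 had 1.16, ARNT 1.23, EGLN1 1.27 and HIF1AN 1.31. EGLN2 had 2.13 per kilobase, at percentile 93.4, and EGLN3 had 0 in 2849 bases. Among the members' transcripts that of HIF1A had the lowest share of G and C, 36.38%, and that of EGLN2 the highest, 62.99%. The other members ranged from 44.15% to 52.59%, and the GGACT counts were not adjusted for this. At least 1 GGACT was present in 93.1% of these genes, and methylation itself was not measured.

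By the smallest Euclidean distance between log2(value + 1) profiles centred over the 4 libraries, the coding genes most like HIF1A among 11576 were RAB26 at 0.0116, RNF114 at 0.0117 and FAM107B at 0.0161. Those most like EPAS1 were CAPRIN1 at 0.00855, CDK19 at 0.0100 and KLF5 at 0.0101. With 4 libraries such a likeness is a description of these libraries.

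The proteins that work with the members were examined as lists. Each count is to be read against all genes tested, of which 1.98% were higher and 1.88% lower in limma-trend, 21.4% stood at an unadjusted p under 0.05 and 20.8% passed in edgeR. Of 11 genes of the VHL ubiquitin ligase and its ubiquitin and NEDD8 conjugating enzymes, 0 passed in limma-trend, 2 were at an unadjusted p under 0.05, edgeR passed 1 (VHL itself) and DESeq2 0. The median log2 fold change was 0.08, and after VHL the smallest p was that of UBE2D1, a ubiquitin-conjugating enzyme, with a log2 fold change of 0.22 (adjusted p 0.147 in limma-trend). Of 16 genes of VHL-independent turnover and protein control of the alpha subunits, 1 rose and 1 fell, with a median of 0.03. SIAH2, a ubiquitin ligase known to target the prolyl hydroxylases EGLN2 and EGLN3, fell from 1045 ± 38.2 to 769 ± 16.8 normalised counts, by 0.44 on the log2 scale (SE 0.0546; limma-trend adjusted p 0.0231). MDM2, the ubiquitin ligase of p53, rose by 0.56 (limma-trend adjusted p 0.0108).

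Among 13 coactivators and their competitors 1 rose and 0 fell, with a median of 0.07. The riser was CITED4, a relative of CITED2 that competes with HIF for p300 and CBP, with 148 and 184 normalised counts in shNC against 307 and 290.2 in shALKBH5, a log2 fold change of 0.85 ± 0.13 (adjusted p 0.0367 in limma-trend). The coactivator EP300 had a log2 fold change of -0.19 (adjusted p 0.0864 in limma-trend, edgeR 0.0167), and its close relative CREBBP, chosen after its values were seen, one of 0.21 (adjusted p 0.0943 in limma-trend, edgeR 0.0131). EdgeR had 3 genes of this list higher and 1 lower. Of 14 genes upstream of HIF alpha transcription and translation, 2 fell and 0 rose. DDIT4, an inhibitor of mTORC1 that HIF also induces, fell by 1.54, and TSC2, the tuberin subunit through which mTORC1 is restrained, fell from 1511 ± 14.2 to 1281 ± 10.9 (limma-trend adjusted p 0.0492).

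Of 22 other oxygen-dependent dioxygenases 3 rose and 2 fell, with a median of -0.00386, where 1.98% of all genes tested rose and 1.88% fell. The histone demethylase KDM4B rose from 1483 ± 46.2 to 2407 ± 5.30, by 0.70 on the log2 scale (SE 0.0427; limma-trend adjusted p 0.00367). Its relative KDM4C rose by 0.50 and PLOD1, a collagen lysyl hydroxylase, by 0.22. The dioxygenase JMJD6 fell by 0.49 and the histone demethylase KDM3A, a known HIF target, by 0.39. Of 22 enzymes of 2-oxoglutarate, succinate and fumarate, the metabolites that feed or inhibit these dioxygenases, 0 passed in limma-trend, 6 were at an unadjusted p under 0.05, edgeR passed 5 and DESeq2 1. The unadjusted and edgeR counts are near the shares over all genes, 21.4% and 20.8%. Their median was 0.07, and the smallest p values were those of SDHB, a subunit of succinate dehydrogenase, at 0.24 (limma-trend adjusted p 0.0532), and IDH1, the cytosolic isocitrate dehydrogenase, at -0.19 (adjusted p 0.0758).

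Transcripts that HIF is known to induce formed the last list. Of 44 HIF target genes tested 15 fell and 3 rose, with a median of -0.13; 9 of the 44 stand in another list too, among them EGLN1, EGLN3 and KDM3A. This list was chosen with earlier results of these data known, so its direction is not independent evidence. HILPDA, a lipid droplet protein, fell from 738 ± 11.5 to 286 ± 0.348, and BHLHE40, a transcriptional repressor, from 4136 ± 12.0 to 2154 ± 93.7 normalised counts. The SD of 0.348 is the spread of shALKBH5 libraries that happened to be nearly equal, with 282 and 286 reads of HILPDA. The angiogenic factor VEGFA fell by 0.40, while the glucose transporter SLC2A1, the glycolytic enzyme GPI and the MYC antagonist MXI1 rose by 0.46, 0.42 and 0.33; these 4 were chosen after their values were seen. The genes with the smallest p beside HILPDA and BHLHE40 were DDIT4, ANGPTL4, SLC2A3 and ADM, with log2 fold changes of -1.54, -1.91, -2.15 and -0.97. EdgeR, with 10.4% of all its genes higher and 10.4% lower, had 9 higher and 18 lower of 43. EGLN1, a member and a target, lay close to the list median at -0.12.

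**Figure D4:**
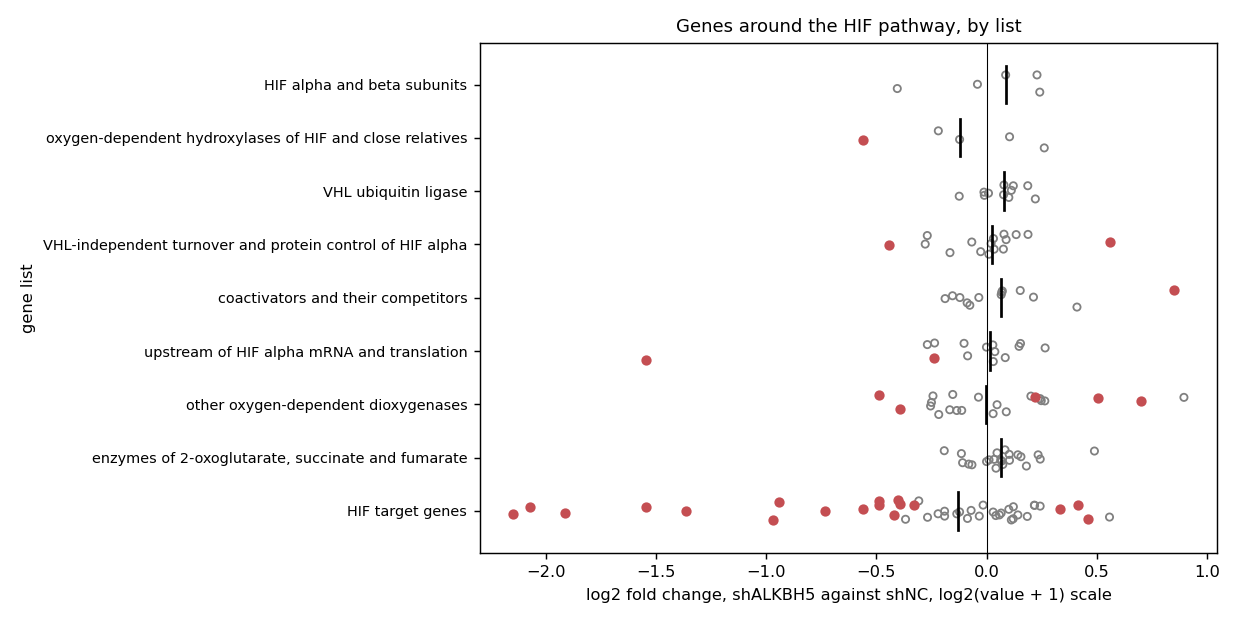
Log2 fold change (x axis, shALKBH5 against shNC) of each gene of the 9 lists around the HIF pathway (rows), with genes past the limma-trend threshold as filled red points, the others as open points and the list median as a black bar. The HIF target list reaches from -2.15 to 0.56, while the subunit, VHL ligase and metabolite lists hold no red point.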

How the data were processed

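Per library, the authors deposited a signal, namely read counts divided by size factors, to judge by the values. Beside it stand the authors' log2 fold changes and the authors' p-values, per the file headers. The sources used here name no aligner, counting program or genome build. Of 28391 genes, 28365 had the same position in GENCODE release 29 on GRCh38. Every value was a whole multiple of 1 step per library, so whole reads were recovered for 100% of values within 0.001 reads, with library totals of 16398604 to 17493141. Counting errors given cover counting alone. An SD of 2 libraries can fall below counting error, so a small SD is no measure of precision.

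Values were tested as log2(value + 1) with limma-trend (limma 3.58.1), over genes with at least 1 in at least 2 libraries, with Benjamini-Hochberg adjustment, a threshold of 0.05 and 5.48 total degrees of freedom. Alternatives were edgeR 4.0.16 (quasi-likelihood) and DESeq2 1.42.0 on the recovered reads, other pseudocounts, filters and scalings, a replicate block and each library left out. The fits were also run on simulated counts as a check of the code alone, and no result here rests on that check. The members, lists, tests and naming rule (the members, ALKBH5, of each list the genes past the threshold, at most 6, or where fewer than 2 passed the 2 with the smallest p, genes overlapping a member and the 3 nearest profiles of HIF1A and EPAS1) were chosen with earlier results of these data known. Replicates exceeded sampling noise in their differences (chi-square per gene 2.85 in shNC, 2.21 in shALKBH5).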

Additional observations from a re-analysis of the deposited data

How the results depend on the processing

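All 7 members kept the sign of their log2 fold change in all 20 alternatives. HIF1A, ARNT, EGLN1 and EGLN2 passed in 0 of them, EPAS1 in 6, VHL in 5 and HIF1AN in 1. EPAS1 passed with only genes of a mean of at least 50 tested (0.23), with edgeR (0.23), with edgeR and DESeq2 size factors (0.23), and with edgeR and a replicate block (0.23); VHL passed in the same 4, at 0.19, 0.18, 0.19 and 0.18. The members past the threshold were 2 of 7 in each of these 4. Of all genes tested, 3487 of 12540 passed with the filter on the mean and 3428 of 16473 with edgeR. With edgeR, 3449 of 16473 passed with DESeq2 size factors and 3273 of 16473 with a replicate block. Each library was also left out in turn. A group left with 1 library was assumed to vary like the other. Over those fits in both tools the log2 fold change ran from 0.20 to 0.25 for EPAS1, from 0.16 to 0.21 for VHL and from 0.05 to 0.16 for HIF1AN. It ran from -0.08 to -0.00105 for HIF1A, nearest 0 without shALKBH5 library 2, from 0.01 to 0.15 for ARNT, lowest without shALKBH5 library 2, from -0.15 to -0.09 for EGLN1, and from -0.31 to -0.13 for EGLN2, nearest 0 without shALKBH5 library 2. In edgeR, EPAS1 had an adjusted p of 0.0514 without shALKBH5 library 1 and 0.0568 without library 2, and VHL of 0.0552, 0.0805 and 0.219 without shNC library 2, shALKBH5 library 1 and shALKBH5 library 2, so neither passed there, while HIF1AN passed, with 0.15 and an adjusted p of 0.0337, without shNC library 1. The edgeR fits without a library were chosen after the data were seen.

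The genes past the threshold numbered 1000 (513 higher, 487 lower). They were 3487 (1789 and 1698) among genes averaging 50 or more, 0 (0 and 0) with no mean-variance trend, where 3903 were at an unadjusted p under 0.05, 3428 (1712 and 1716) with edgeR, 3449 (1760 and 1689) with edgeR and DESeq2 size factors, and 793 higher and 691 lower with DESeq2. Equal totals gave 323 higher and 540 lower, and moved the median of all genes from -0.00399 to -0.0274. Without a library the total ran from 0 to 3433, the higher from 0 to 1778 and the lower from 0 to 1655. In limma-trend it was 0 without shNC library 1 or 2 (3859 or 4201 at an unadjusted p under 0.05), and 2143 or 2281 (1129 higher and 1152 lower) without shALKBH5 library 1 or 2. In edgeR it was 3016 (1535 higher, 1481 lower) and 3433 without shNC library 1 and 2, and 1967 (978 and 989) and 2228 (1137 and 1091) without shALKBH5 library 1 and 2. The labels do not say if the shared replicate numbers pair the libraries. Same-numbered libraries deviated with a correlation of -0.0275 over 12540 genes. With 2 libraries per group this value shows no large shared deviation, and it cannot tell if cultures or preparations were matched. With the replicate block limma-trend passed 111 genes (56 and 55), 0 of them members, and edgeR 3273 (1623 and 1650).

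EdgeR passed 2 HIF subunit genes, 2 hydroxylase genes, 1 VHL ligase gene, 5 genes of VHL-independent control, 4 coactivator genes, 5 upstream genes, 10 other dioxygenases, 5 metabolite enzymes and 27 HIF targets, where it passed 20.8% of all its 16473 genes. With a library left out limma-trend passed 0 to 1 of the subunits, 0 to 2 of the hydroxylases, 0 to 3 of VHL-independent control, 0 to 2 coactivators, 0 to 6 upstream genes, 0 to 8 dioxygenases, 0 to 3 metabolite enzymes and 0 to 23 HIF targets; every list had 0 without shNC library 1 or 2, and the subunits also without shALKBH5 library 1. The VHL ligase list had 0 in all 4 of these fits. The zeros without shNC library 1 or 2 say nothing about any list, because no gene at all passed in limma-trend in those fits. The 20.8% belongs to the full edgeR fit and is no background for the counts with a library left out. Those counts are to be read against the totals of the same fits, given above. The causes were not tested.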
